A study of Mus musculus and Sus scrofa with 30 samples.

Results

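The complement system is a cascade of blood and tissue proteins in which proteases cut the central component C3, and the fragments mark surfaces, attract leukocytes and start the membrane attack complex. It is started by the classical, lectin and alternative pathways and held in check by soluble and membrane-bound regulators. Fat tissue is a known source of several of its proteins, among them complement factor D, which was first described in fat cells under the name adipsin. The 9 names examined here were C3 (the central component), C5 and C7 (terminal components), the proteases Masp1, Cfb and Cfd, and the regulators Cfi, Serping1 and Clu. They were chosen by name from the complement system with earlier results of these same libraries known, where the low C3 of pig cells given the combination had been seen. The fits below are therefore a description of these libraries and not independent evidence.

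Bulk RNA-seq was taken on day 5 of fat cell induction in 2 cell systems, mouse 3T3-L1 embryonic fibroblasts, an established line, and porcine DFAT cells, which are dedifferentiated fat cells from subcutaneous fat. Each system had 5 groups of 3 libraries, 30 in all, given DMSO vehicle, dicoumarol (a coumarin anticoagulant), magnolol (a lignan of magnolia bark), dicoumarol with magnolol (the combination), or rosiglitazone (an agonist of the fat cell receptor PPARγ). All 3T3-L1 groups, vehicle included, were induced in 10% serum with dexamethasone at 75 nM, insulin at 0.75 µg/mL and IBMX at 37.5 µM. All DFAT groups were induced in 2% serum with dexamethasone (0.5 µM), pantothenate (10 µM), IBMX (12.5 µM) and biotin (20 µM), so dexamethasone was a shared background of every group. Neither the doses of the compounds nor how many pigs the DFAT cells came from is stated in the labels. No label says that the replicates were separate cultures, so the p-values measure the spread between these libraries, which may be technical.

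The 3T3-L1 table listed 7 of the 9 names among 24843 genes, and the DFAT table listed all 9 among 34307. C5 and C7 were not listed by name in 3T3-L1. Hc, the mouse symbol of C5, was listed, at 0 in 10 of 15 libraries and at no more than 1.05 normalized counts in the others. Cfi was listed in 3T3-L1 at 0 in 10 libraries and at no more than 5.24. Genes with a mean of at least 10 normalized counts were tested, which left 6 members of 15723 genes in 3T3-L1 and 8 of 14819 in DFAT, where C7 (mean 5.96) fell below the minimum. Estimated depth was 22.8 to 30.7 M reads in 3T3-L1 and 44.8 to 70.5 M in DFAT libraries.

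The labelled cell types carried their markers. Fibroblast markers summed to 293054 to 311240.0 normalized counts in the 3T3-L1 vehicle libraries, against 0 to 1.78 for 3 listed epithelial markers. In the DFAT vehicle libraries the 6 listed fibroblast markers summed to 1830647 to 1972519.7 (THY1 not listed) and the 4 epithelial markers to 1.87 to 9.16, with CDH1 at 0 throughout. Of leukocytes, another source of complement proteins, 7 of 10 markers were listed in 3T3-L1 (Ptprc, Adgre1 and Tyrobp were not) and 9 of 10 in DFAT. Only 3 and 2 of these passed the minimum mean. In 3T3-L1 the listed markers summed to 252 to 290.0 with vehicle and 130.4 to 185 with rosiglitazone. They did not move together: rosiglitazone changed Cd14 by −1.32, Csf1r by −0.50 and Cd68 by 0.67 on the log2 scale. In DFAT the sums were 839 to 1032 with vehicle and 675 to 973 with rosiglitazone. Beside the results on rosiglitazone in 3T3-L1, mitochondrial genes took 7.66% to 14.3% of the counts with the drug and 5.22% to 7.00% with vehicle. In DFAT they took 9.58% to 10.2% with vehicle, 10.7% to 11.7% with dicoumarol, 10.5% to 12.9% with magnolol, 12.2% to 15.1% with the combination and 6.85% to 10.8% with rosiglitazone. Their part in the results was not tested.

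The RefSeq promoter windows (300 bases, mostly upstream of the annotated start, GRCm38.p6) are shown for C3, the most abundant member per length in 3T3-L1, and for Cfd, the single member that limma called higher in any comparison. Capitals mark the letters that matched 1 of 4 short motifs searched on both strands: TATAAA, TTGCNNAA (C/EBP type), GGGANNNNCC (NF-kB type) and AGGTCA (a nuclear receptor half-site). Windows for 4 names (C3, Cfd, C7 and Hc) were matched.
C3, chr17:57228087-57228386, minus strand: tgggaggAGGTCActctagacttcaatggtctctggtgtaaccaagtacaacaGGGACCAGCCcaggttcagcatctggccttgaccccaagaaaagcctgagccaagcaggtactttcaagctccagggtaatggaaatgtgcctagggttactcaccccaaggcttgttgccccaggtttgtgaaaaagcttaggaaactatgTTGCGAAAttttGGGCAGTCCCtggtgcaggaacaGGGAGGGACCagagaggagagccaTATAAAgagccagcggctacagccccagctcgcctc
Cfd, chr10:79890603-79890902, plus strand: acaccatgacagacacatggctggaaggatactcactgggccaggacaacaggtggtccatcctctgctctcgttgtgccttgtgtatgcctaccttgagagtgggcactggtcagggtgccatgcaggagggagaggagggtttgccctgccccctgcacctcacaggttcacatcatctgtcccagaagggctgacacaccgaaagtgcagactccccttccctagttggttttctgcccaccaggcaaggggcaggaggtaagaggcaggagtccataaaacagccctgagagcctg
Counting the annotated start as 0, the C3 window held TTGCGAAA from −45 to −38, the NF-kB type letters from −197 to −188, −33 to −24 (on the other strand) and −10 to −1, AGGTCA from −243 to −238, and TATAAA from 14 to 19. None of these matches overlapped. The Cfd window held none of the 4. Of 32851 such windows, 13.6% held TATAAA, 10.8% TTGCNNAA, 20.7% GGGANNNNCC and 16.3% AGGTCA, so each match is a description of letters and not of a bound site.

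Fold changes below are log2 differences of normalized count + 1, which understate the change of low genes, with limma's moderated standard error (SE). P-values were adjusted by Benjamini-Hochberg over all genes tested, and a gene was called at an adjusted p under 0.05. In 3T3-L1 the replicate numbers pair the libraries across groups, so a second fit took the number as a block, and its adjusted p stands beside each call that it changed. In RNA from whole cultures, fewer cells of a type and less RNA per cell cannot be told apart.

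In 3T3-L1 cells rosiglitazone was the treatment with which complement genes were called: Cfd rose and Masp1, Serping1, Cfb and Clu fell, 5 of 6 tested members. Over all genes, limma called 20.3% higher and 19.9% lower in that comparison. The median log2 difference of the 6 members was −0.84, against −0.00 over all genes. Dicoumarol, magnolol and the combination each had 0 members called against vehicle. Unadjusted p-values were under 0.05 for 1, 3 and 3 of the 6, beside 393, 1579 and 2691 of all 15723 genes. After adjustment limma called 0% of all genes with dicoumarol, 1.23% with magnolol, and 3.86% higher and 1.36% lower with the combination. With the replicate block, 2 members were called with magnolol (4.96% of all genes in that fit), 4 with the combination (13.5%) and 6 with rosiglitazone (49.8%).

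C3 was abundant in every 3T3-L1 library, at 0.0574% to 0.166% of all counts. Its gene is listed on chromosome 17, 57510970 to 57535136, minus strand, in the authors' coordinates, whose build was not settled and which are not comparable with those of the promoter window. With vehicle it stood at 20336, 29346 and 34872 normalized counts in replicates 1, 2 and 3. The values were 20787, 25184 and 34924 with dicoumarol, 23507, 30105 and 43891 with magnolol, and 26295, 26669 and 35457 with the combination. With rosiglitazone they were 16298, 21260.4 and 26306. All groups overlapped with vehicle, and within each of the 5 groups the library numbered 1 was the lowest and the library numbered 3 the highest. The rosiglitazone difference was −0.40 (SE 0.25; limma adjusted p 0.224), and 0.00230 with the replicate block. Against the combination it was −0.48 (limma adjusted p 0.186; 0.00118 with the block).

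**Figure D1:**
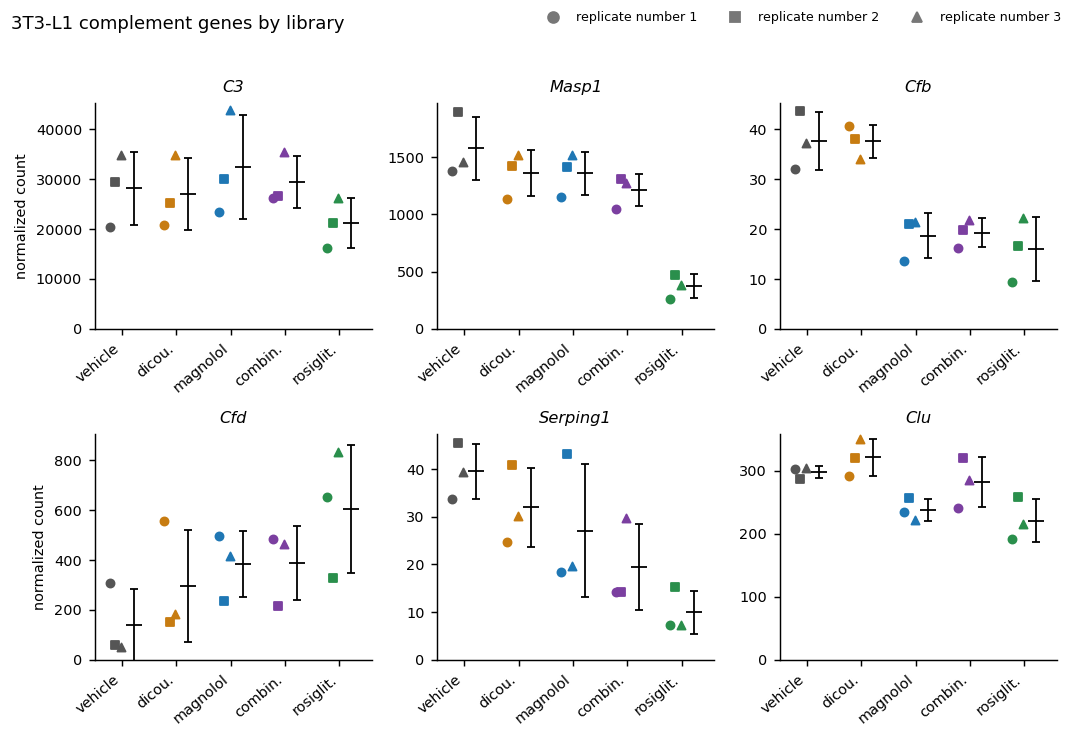
Normalized counts (linear axis from 0) of the 6 tested members in each 3T3-L1 library, by treatment; symbols mark the replicate number and black bars the mean and SD of 3 libraries, the lower bar of vehicle Cfd being clipped at 0. Masp1 with rosiglitazone (262 to 475) lies below all other groups, and C3 keeps the same order of replicate numbers in every group.

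Among the proteases, Masp1, an activating protease of the lectin pathway, fell most. Its vehicle libraries held 1384, 1894 and 1461 normalized counts and its rosiglitazone libraries 262, 475 and 384, a log2 fold change of −2.10 (SE 0.19; limma adjusted p 8.2e-07). The other groups lay between 1050.5 and 1521, well above the rosiglitazone libraries. The fall from the combination to rosiglitazone was −1.73 (limma adjusted p 3.8e-04), and Masp1 was the only member called in that comparison, where limma called 8.78% of all genes lower. C3 and Clu were also called with the replicate block, which called 33.3% of all genes in either direction. With the combination, Masp1 stood at 1050.5, 1306 and 1278, below every vehicle library, with a difference of −0.38 (limma adjusted p 0.333; 0.0279 with the block).

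Cfd, the serine protease that cuts factor B, rose. Its vehicle libraries were far apart, at 306, 58.2 and 53.5 normalized counts, replicate 1 standing far above the others. Dicoumarol gave 555, 151 and 184, magnolol 497, 236 and 416, the combination 486, 215 and 463, and rosiglitazone 654, 327 and 834. Only the rosiglitazone libraries all lay above all vehicle libraries, with a log2 fold change of 2.50 (SE 0.60; limma adjusted p 0.00369). For magnolol the difference was 1.88 (limma adjusted p 0.207; 0.00475 with the replicate block), and for the combination also 1.88 (0.0902; 0.00211 with the block). Without vehicle replicate 1 both were 2.69, with limma adjusted p of 0.0230 and 0.00833. That fit kept replicate 1 of the treated groups, and the library numbered 1 had the highest Cfd in 4 of 5 groups. Over all 12 alternatives both differences ran from 1.44 to 2.69. The highest limma adjusted p was 0.559 for magnolol and 0.322 for the combination. Vehicle replicate 1 was also the highest of its group in Adipoq, the fat cell hormone adiponectin (794, against 187 and 379). The dicoumarol difference was 1.33 (SE 0.60; unadjusted p 0.0423, limma adjusted p 1).

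Cfb, the factor B that Cfd cuts, ran the other way at a low level. It stood at 32.1, 43.6 and 37.2 normalized counts with vehicle and at 40.6, 38.1 and 34.1 with dicoumarol. Magnolol gave 13.6, 21.1 and 21.5, the combination 16.2, 19.8 and 21.8, and rosiglitazone 9.44, 16.6 and 22.2, all below every vehicle library. The fall with rosiglitazone was −1.24 (SE 0.30; limma adjusted p 0.00353). Magnolol differed by −0.99 (limma adjusted p 0.165; 0.0382 with the block) and the combination by −0.93 (0.0896; 0.0259 with the block). The combination was also below dicoumarol in every library (−0.93, limma adjusted p 0.294). In that comparison limma called 0.0254% of all genes and 0 members. At an unadjusted p under 0.05 were 1 member of 6 and 1273 of 15723 genes.

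Of the regulators, Serping1, the C1 inhibitor that blocks the classical and lectin proteases, fell with rosiglitazone from 33.8, 45.4 and 39.5 normalized counts to 7.34, 15.2 and 7.41 (log2 fold change −1.95, SE 0.38; limma adjusted p 8.4e-04). The combination libraries, at 14.2, 14.2 and 29.8, were also all below vehicle (−1.07; limma adjusted p 0.137; 0.0412 with the block). Magnolol gave 18.4, 43.2 and 19.6, which overlapped with vehicle. Clu, the chaperone clusterin that binds the terminal complex, was tight with vehicle (302, 287 and 305) and lower with rosiglitazone (192, 258 and 215; −0.44, SE 0.13; limma adjusted p 0.0167). That call was lost without rosiglitazone replicate 1 (0.0832) and in a fit of the 2 groups alone (0.0571). Against the combination the Clu difference was −0.35 (limma adjusted p 0.0809; 0.0263 with the block). Cfi, the protease that inactivates C3b, was at 0 in all vehicle libraries and at 5.24, 1.09 and 1.23 with rosiglitazone. These values amount to a few reads, too low for a comparison.

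Per kilobase of exon (GENCODE M21 models), the vehicle means in 3T3-L1 were 5480.2 ± 1427 (SD, n = 3) for C3, 161 ± 28.0 for Masp1, 151 ± 156 for Cfd, 86.6 ± 2.80 for Clu, 17.0 ± 2.48 for Serping1 and 13.3 ± 2.05 for Cfb. Within a library, C3 was above Masp1, Clu above Serping1 and Serping1 above Cfb in 3 of 3 vehicle libraries. The order of Masp1, Cfd and Clu was not fixed, with Masp1 above Cfd in 2 of 3 and Cfd above Clu in 1 of 3. With rosiglitazone the level per kilobase of Cfd was 656 ± 278 and that of Masp1 38.0 ± 10.9, so Cfd stood second to C3 (4139 ± 973).

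In 3T3-L1 limma called 0 members in the combination against magnolol (0% of all genes, 336 at an unadjusted p under 0.05) and 0 in the interaction of dicoumarol and magnolol (0% of all genes, 78 at an unadjusted p under 0.05). No member had an unadjusted p under 0.05 in either. The interval of the Cfd difference between the combination and magnolol ran from −1.28 to 1.27 (95%), so it held differences of that size in either direction.

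In DFAT cells the members that changed all fell: C3, MASP1, SERPING1 and CLU. Of 8 tested members, limma called 1 lower with dicoumarol (of all genes 0.911% higher and 1.03% lower), 1 with magnolol (2.96% higher, 1.27% lower), 3 with the combination (6.11% higher, 4.06% lower) and 4 with rosiglitazone (5.8% higher, 5.02% lower). The median log2 difference of the 8 was −0.12, −0.14, −0.34 and −0.62 in that order, with medians over all genes of 0.00, −0.01, −0.01 and −0.01. The combination count includes C3, whose value was known when the genes were chosen, so it is not read against the shares of all genes. The dicoumarol and rosiglitazone counts also include C3, against the same vehicle libraries. No member was called higher. CLU and MASP1 were abundant, at 0.0459% to 0.0846% and 0.0122% to 0.0227% of all counts. C5, CFB, CFD and CFI were called in no comparison.

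**Figure D2:**
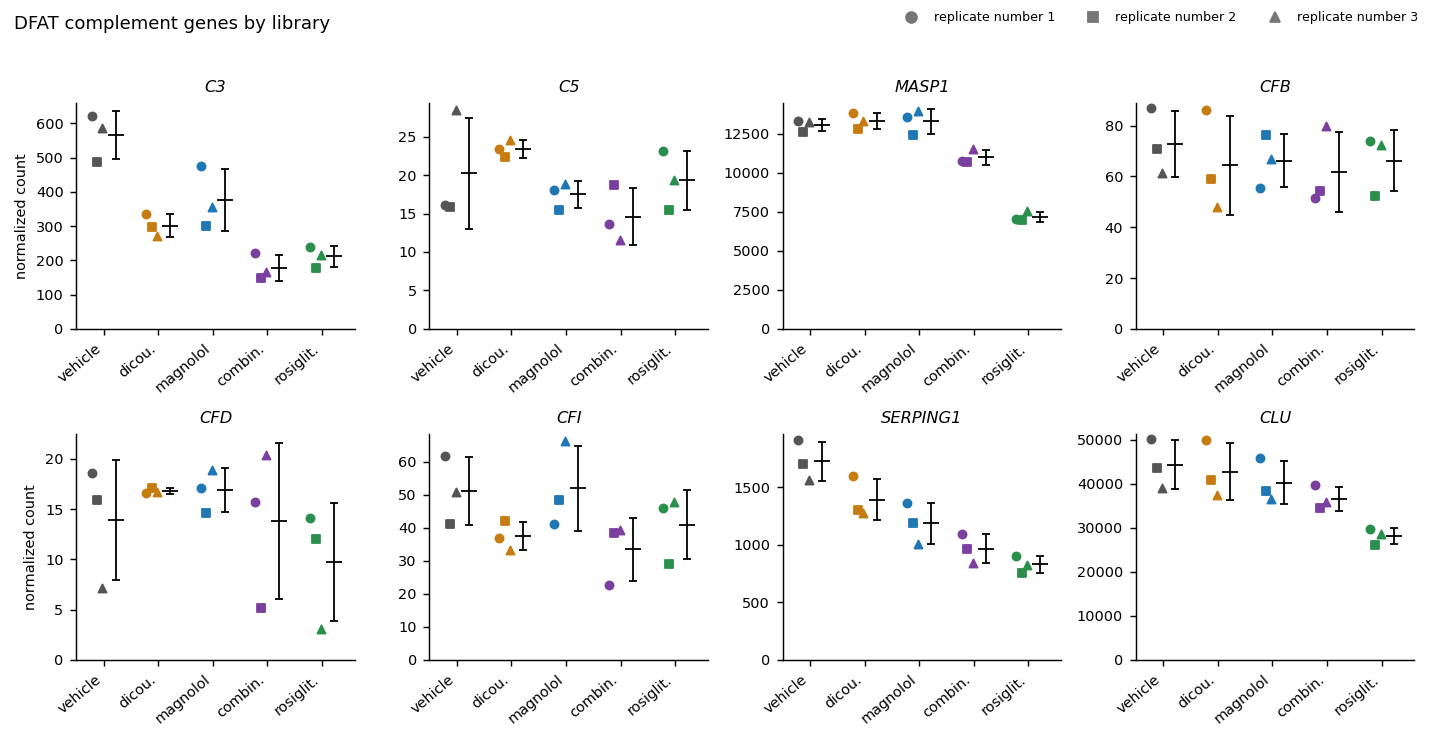
Normalized counts (linear axis from 0) of the 8 tested members in each DFAT library, by treatment, with symbols for the replicate number and black bars for the mean and SD of 3 libraries. C3, MASP1, SERPING1 and CLU with rosiglitazone lie below all vehicle libraries (the combination is lowest for C3), while the libraries of C5, CFB and CFD overlap between every treatment and vehicle.

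C3 in DFAT cells (listed on chromosome 2, 72431212 to 72472228, plus strand) held 621, 487 and 587 normalized counts with vehicle. Dicoumarol gave 336, 297 and 270.4, magnolol 476, 299 and 356, the combination 222, 149 and 166, and rosiglitazone 239.7, 178 and 217. All 12 treated libraries lay below all vehicle libraries, and the library numbered 1 was the highest in each of the 5 groups. The combination was lowest, 1.67 below vehicle on the log2 scale (SE 0.17), the value already known when the genes were chosen. C3 fell by 0.90 with dicoumarol (limma adjusted p 0.00807) and by 1.42 with rosiglitazone (limma adjusted p 2.0e-05). The magnolol difference was −0.60 (limma adjusted p 0.0615). These differences share the vehicle libraries of the known combination value, so their p-values are a description and not independent evidence. The dicoumarol call was lost without vehicle replicate 1 (0.0576) or dicoumarol replicate 3 (0.0589). The magnolol difference was called under 3 of 12 alternatives, among them without magnolol replicate 1 (−0.78, 0.0188) and in a fit of the 2 groups alone (0.0327). It stayed uncalled under the other 9. Over all alternatives it ran from −0.78 to −0.45, with a limma adjusted p of at most 0.225.

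In order of mean, C3 ran from vehicle (565 ± 70.0, SD, n = 3) through magnolol (377 ± 90.3), dicoumarol (301 ± 33.2) and rosiglitazone (212 ± 31.2) to the combination (179 ± 38.1). Magnolol overlapped with dicoumarol, and rosiglitazone with the combination (difference 0.25, 95% interval −0.11 to 0.62). The combination lay below both single compounds, by 0.77 from dicoumarol and by 1.07 from magnolol. These share the combination libraries whose low C3 was known, and are given with no test. Its departure from the sum of the single differences was −0.16 (95% interval −0.68 to 0.35).

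MASP1 was at 13280.2, 12584 and 13226 normalized counts with vehicle, and the dicoumarol (12823 to 13826) and magnolol (12387 to 13916) groups overlapped with it. The combination gave 10765, 10654 and 11521 and rosiglitazone 7042, 6967 and 7551, the first all below vehicle and the second all below the first. The log2 fold changes against vehicle were −0.25 (SE 0.06; limma adjusted p 0.0114) and −0.86 (SE 0.06; 1.7e-08), and rosiglitazone was below the combination by −0.61 (1.8e-06). The combination call was lost without vehicle replicate 1 (0.0514), combination replicate 1 (0.0505) or combination replicate 2 (0.0521). Against the sum of the single compounds the combination departed by −0.31 (SE 0.08; unadjusted p 0.00193, limma adjusted p 0.597). MASP1 was the 1 member of 8 with an unadjusted p under 0.05 in the interaction, beside 582 of 14819 genes. There 0 members and 0.081% of all genes were called.

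SERPING1 stepped down over the groups. It held 1909, 1704 and 1566 normalized counts with vehicle, 1603, 1303 and 1279 with dicoumarol, and 1368, 1189 and 1012 with magnolol. The combination gave 1099.5, 962 and 843, and rosiglitazone 907, 755 and 829. The log2 differences were −0.31 (limma adjusted p 0.330), −0.54 (0.0141), −0.84 (1.6e-04) and −1.05 (1.0e-05), each with an SE of 0.12. Neighbouring groups overlapped at every step of this order, and the library numbered 1 was the highest in each group. The magnolol call was lost without vehicle replicate 1 (0.0929) or magnolol replicate 3 (0.0890), with no minimum mean (0.0591) and without the variance trend (0.0531).

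CLU was at 50113, 43591 and 39058 normalized counts with vehicle and fell with rosiglitazone to 29639, 26094 and 28519.6 (log2 fold change −0.65, SE 0.11; limma adjusted p 6.9e-04). Dicoumarol (37468 to 49996), magnolol (36598 to 45873) and the combination (34368 to 39684) overlapped with vehicle, the combination difference being −0.27 (limma adjusted p 0.147). CLU and MASP1 were the 2 members lower with rosiglitazone than with the combination, a comparison in which 8.79% of all genes were called lower. For CLU that difference was −0.38 (limma adjusted p 0.0260). It was lost without combination replicate 1 (0.108), combination replicate 3 (0.0509), rosiglitazone replicate 2 (0.0847) or rosiglitazone replicate 3 (0.0535), with no minimum mean (0.0796), with quantile normalization (0.0508) and without the variance trend (0.0616). The replicate numbers pair the DFAT magnolol, combination and rosiglitazone libraries, and with the block SERPING1 was also called there (−0.22, limma adjusted p 0.254; 0.0234 with the block, which called 24.9% of all genes).

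Set beside the single compounds, the combination had 3 members called lower than with dicoumarol and 2 lower than with magnolol. Each count holds C3, whose low combination value was known, so the counts are not read against the shares of all genes. Apart from C3, MASP1 and SERPING1 were called below dicoumarol (0.344% of all genes lower) and MASP1 below magnolol (0.236%). The differences from dicoumarol were −0.28 for MASP1 (limma adjusted p 0.0147) and −0.53 for SERPING1 (0.0269). Leaving out any single library of those 6 ended at least 1 of these 2 calls, with limma adjusted p of 0.0643 to 0.106 for MASP1 and 0.0555 to 0.189 for SERPING1 where lost. SERPING1 was also lost with no minimum mean (0.0991) and without the variance trend (0.0935), as was C3. In all, the C3 call against dicoumarol was lost under 6 of 12 alternatives. Below magnolol was MASP1 (−0.28, limma adjusted p 0.0406). The MASP1 call was lost without magnolol replicate 1 (0.205) or 3 (0.188) or combination replicate 1 (0.195) or 2 (0.169), with no minimum mean (0.0719), without the variance trend (0.108) and in a fit of the 2 groups alone (0.164), where C3 was not called either. SERPING1 differed from magnolol by −0.29 (limma adjusted p 0.596; 0.0280 with the block, which called 1.96% of all genes).

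The other DFAT members were low. CFB ranged from 48.0 to 86.8 normalized counts, CFI from 22.6 to 66.3, C5 from 11.5 to 28.5, CFD from 3.06 to 20.4 and C7 from 2.04 to 15.3. The CFI combination libraries (22.6, 38.5 and 39.5) lay below the vehicle libraries (61.7, 41.1 and 50.9), with a difference of −0.62 (limma adjusted p 0.161). CFD, which rose with rosiglitazone in 3T3-L1, was at 18.6, 15.9 and 7.13 with vehicle and 14.1, 12.0 and 3.06 with rosiglitazone in DFAT (−0.59, 95% interval −1.67 to 0.50; limma adjusted p 0.591). The tables were normalized separately, and the difference between the systems was not tested.

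**Figure D3:**
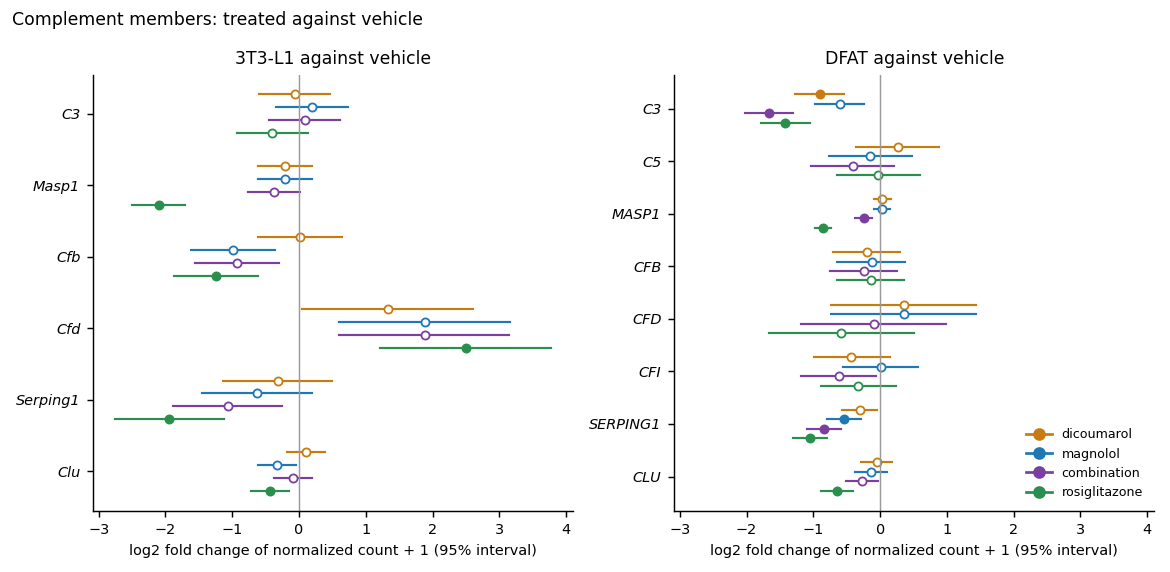
Log2 fold change of each tested member against vehicle (points) with its 95% interval (lines), in 3T3-L1 (left) and DFAT (right); filled points were called by limma and open points were not. Cfd in 3T3-L1 with rosiglitazone (2.50) is the single filled point above 0, and the intervals of MASP1 in DFAT are the narrowest.

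The genes whose log2 values followed C3 and Cfd most closely over the 15 libraries of a system were named by rule. The libraries share groups, replicate numbers and scaling, so these are descriptions. In 3T3-L1 they included Rnf169 (Pearson r 0.96) and Adam23 (0.95) for C3, and Gpd1 (0.93), Mcam (0.93) and Tst (0.92) for Cfd. In DFAT, C3 followed DCN (0.94) and PDGFRA (0.93), both stromal genes of the fibroblast marker list, and SPIDR (0.92). For CFD they included IP6K2 (0.74) and MZF1 (0.73). PDGFRA itself went from 56399 to 65376 normalized counts with vehicle to 31852 to 35558 with the combination and 26236 to 30701 with rosiglitazone. The marker list did not move as one. COL1A1 and COL1A2 of that list were called higher with magnolol (0.86 and 0.70). The list's sum was 1830647 to 1972519.7 with vehicle and 2957187 to 3421411 with the combination.

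**Figure D4:**
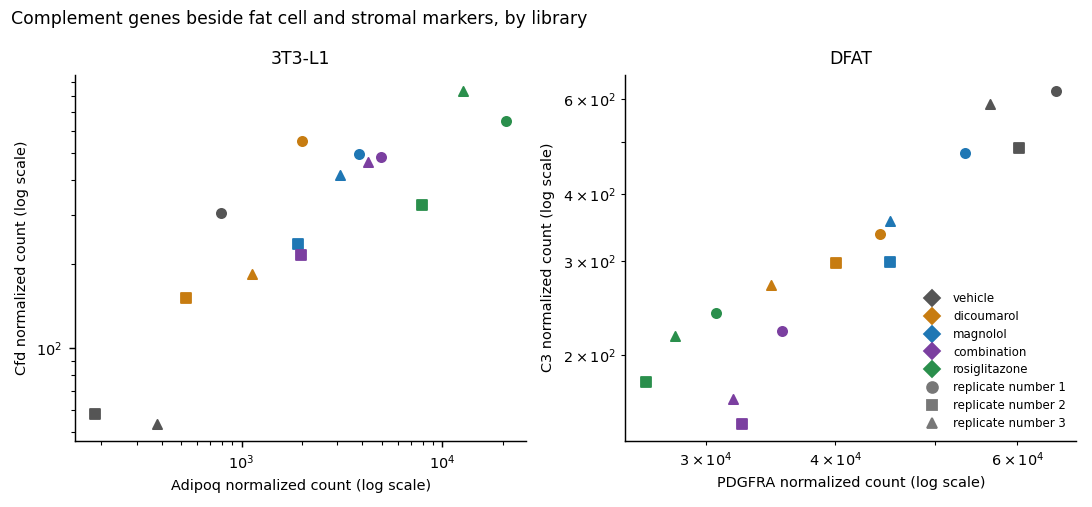
Each library's Cfd against Adipoq in 3T3-L1 (left) and C3 against PDGFRA in DFAT (right), as normalized counts on log axes; colours mark the treatment and symbols the replicate number. Vehicle replicate 1 in 3T3-L1 (Adipoq 794, Cfd 306) lies apart from the other 2 vehicle libraries, and in DFAT the vehicle libraries are highest on both axes.

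The wider complement system was read from a list of pathway genes, 23 tested in 3T3-L1 and 26 in DFAT, of which 17 and 18 are not among the 9 names. Of these others, rosiglitazone in 3T3-L1 had 1 higher and 9 lower of 17 (median −0.51, all genes −0.00), beside 20.3% and 19.9% of all genes. The combination had 1 and 1 (3.86% and 1.36% of all genes), and magnolol and dicoumarol 0 and 0. These list counts come from the fit without the replicate block, and the list was not counted with it. With the block, 13.5% of all genes were called with the combination and 4.96% with magnolol, so the counts may be too low. C1qbp, a mitochondrial and surface protein that binds C1q, rose with the combination (0.36) and rosiglitazone (0.99). Colec12, a scavenger collectin, fell with both (−0.43 and −0.64). Among the others that fell with rosiglitazone, named after their values were seen, were C1s1 (−1.49), C1ra (−1.32), Cd93 (−1.05), Itgb2 (−0.98), C4b (−0.98), Cd55 (−0.84) and C1rl (−0.51). C1s1, a protease of the C1 complex, stood at 2998, 4131 and 4814 normalized counts with vehicle and 1002, 1441 and 1854 with rosiglitazone, with no overlap. C1s1, C1ra and C4b have near-identical copies, so their values are uncertain.

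In DFAT the other genes of the list numbered 1 higher and 0 lower with dicoumarol, 1 and 1 with magnolol, 2 and 5 with the combination, and 1 and 5 of 18 with rosiglitazone (medians −0.05, −0.08, −0.10 and −0.28), beside the shares of all genes given above (4.06% lower with the combination, 5.02% with rosiglitazone). FCN2, a ficolin that recognises sugars for the lectin pathway, rose in all 4 comparisons, by 0.64, 1.97, 1.95 and 3.64 on the log2 scale. It went from 51.5, 51.4 and 46.8 normalized counts with vehicle to 767, 487 and 678 with rosiglitazone. C1S and C1R, the proteases of the C1 complex, fell with the combination (−0.33 and −0.59) and with rosiglitazone (−1.04 and −0.99). C1S went from 15362, 15352 and 14866 to 7967, 6831 and 7333 with rosiglitazone. COLEC12 fell by 0.62 and 1.13 and C2, a protease subunit of the classical pathway, by 0.48 and 0.53 in the same 2 comparisons. C1QBP fell by 0.23 with magnolol and 0.20 with the combination.

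**Figure D5:**
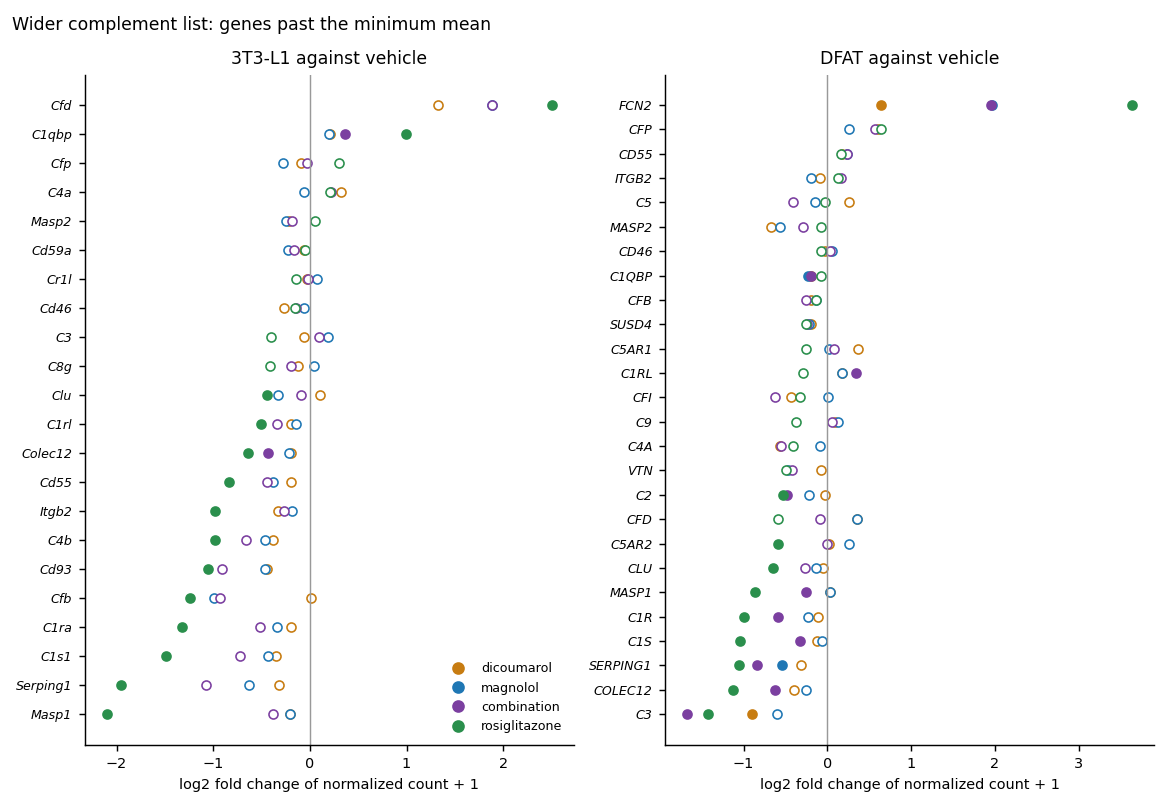
Log2 fold change against vehicle for tested genes of the wider complement list, ordered by the rosiglitazone value, in 3T3-L1 (left) and DFAT (right); filled points were called by limma. Most filled points lie below 0, with Cfd and C1qbp the exceptions in 3T3-L1, and FCN2 (3.64 with rosiglitazone) and C1RL with the combination the exceptions in DFAT.

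Marker levels also changed, in both directions. The marker counts come from the fit without the replicate block. In 3T3-L1 all 7 fibroblast markers were called lower with rosiglitazone (sum 159040.1 to 214507 normalized counts) and 3 of 7 with the combination. All 6 tested fat cell markers were called higher with magnolol, the combination and rosiglitazone. In DFAT 2 of 5 tested fibroblast markers were called lower with each of the 4 treatments, while dicoumarol had 1 higher and magnolol and the combination 2 each. Of all genes, 0.911%, 2.96%, 6.11% and 5.8% were called higher with dicoumarol, magnolol, the combination and rosiglitazone. The shares called lower were 1.03%, 1.27%, 4.06% and 5.02%, in that order. The listed fibroblast markers summed to 1830647 to 1972519.7 with vehicle and to less with rosiglitazone, at 1456663 to 1614572. The sum was higher with dicoumarol (2588202 to 2723804), magnolol (2923365 to 3430473) and the combination (2957187 to 3421411). Fat cell markers were called higher in 5 of 6 with dicoumarol, 5 of 6 with magnolol, 6 of 6 with the combination and 5 of 6 with rosiglitazone. They summed to 1421 to 1627 with vehicle, 3276 to 3567 with dicoumarol, 6743 to 7777 with magnolol, 12927 to 14225 with the combination and 21648 to 23264 with rosiglitazone. Their part in the complement changes was not tested.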

How the data were processed

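Per the labels' protocols, the mRNA libraries kept strand information through dUTP. The deposited values are signal values: gene counts that the authors divided by DESeq2 size factors, in 1 table per species, per the labels. The submitters' processing notes name STAR, DESeq2, bcl2fastq 2.19.1.403 and the build GRCm38, also for the pig libraries. Of 24070 mouse genes matched to the GENCODE M21 annotation of GRCm38, 95.5% had the same length but 2.18% the same start, so the build of the coordinates is not settled and they are given as deposited. The end is the listed stop less 1.

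Genes with a mean of at least 10 were fitted with limma 3.58.1 (R 4.3.3) on log2(value + 1), with 5 groups in 1 model, a variance trend and two-sided tests. The members and lists were chosen with earlier results of these data known. Named genes were the 9 members, list genes called against vehicle in at least 2 comparisons, the 3 largest called changes per system of an acute-phase list, and the 3 genes most like C3 and Cfd with a mean of at least 100. Genes outside this rule are named as such, and some genes that the rule or the lists hold are not reported here. Alternatives were a pseudocount of 5, no minimum, quantile normalization, no trend, only the compared groups, a replicate block and leaving out each library.

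In 3T3-L1, deviations from group means of same-numbered libraries correlated above 0.1 in all 30 pairs (lowest 0.106), so the numbers pair them. In DFAT this held for every pair only among magnolol, combination and rosiglitazone (lowest 0.105). With vehicle, the median correlation of same-numbered libraries was 0.0948 for dicoumarol, 0.0769 for magnolol, 0.122 for the combination and 0.0162 for rosiglitazone. For vehicle and rosiglitazone, 0 of 3 same-numbered pairs were above 0.1 (lowest −0.306), and differently numbered libraries had the higher median (0.134). A pairing with vehicle was therefore not shown for rosiglitazone, and was neither shown nor excluded for the other treatments. The labels do not say what a number marks. Tables and plots used Python 3.11.15, numpy 2.4.6, pandas 2.3.3 and matplotlib 3.10.9.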

Additional observations from a re-analysis of the deposited data

How the results depend on the processing

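Of 22 member differences called, 12 were called under every alternative tried and 10 were lost under at least 1. Both counts hold DFAT C3 differences of the combination, whose low C3 was known beforehand, so they are no independent evidence for C3. None reversed. The number of members called was within 1.5 times its reported value under all alternatives with a value except these. With the replicate block it was 2 in 3T3-L1 with magnolol and 4 with the combination (0 reported for each), and 3 for rosiglitazone against the combination (1 reported). In DFAT, where only some same-numbered vehicle and treated libraries correlated above 0.1, the block gave 2 with dicoumarol and 2 with magnolol (1 reported for each). The shares of all genes called in these block fits are not given here, so the rise is not read as particular to the members. The added members were SERPING1 with dicoumarol (limma adjusted p 0.0102 with the block) and C3 with magnolol (9.9e-04). CLU with the combination was also called with the block (0.00754). In all, 14 differences that were not called were called with the block. With no minimum mean, the count was 2 for rosiglitazone against the combination in 3T3-L1, the second being Cfi, at 0 in all combination libraries. In DFAT it was 0 for magnolol, 1 for the combination against dicoumarol (3 reported), 1 against magnolol (2 reported), and 1 for rosiglitazone against the combination (2 reported). Without the variance trend, those 4 DFAT counts were 0, 1, 1 and 1. A fit of the compared groups alone gave 2 with magnolol and 0 for the combination against magnolol. Quantile normalization gave 1 for rosiglitazone against the combination in DFAT. Leaving out 1 library gave 0 to 1 with magnolol, 0 to 1 with the combination and 1 to 3 for rosiglitazone against the combination in 3T3-L1. In DFAT it gave 0 to 1 with dicoumarol, 0 to 2 with magnolol, 0 to 2 for the combination against dicoumarol, 1 to 2 against magnolol and 1 to 2 for rosiglitazone against the combination. The cause was not tested, beyond the smaller number of libraries in the last set. CFD, C5 and C7 in DFAT and Cfi in 3T3-L1 rest on few reads, which limits their comparisons.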

Other observations

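A list of acute-phase genes, liver and fat proteins that respond to inflammation, was counted in the same fits. These are the fits without the replicate block, and the list was not counted with it. In 3T3-L1, 15 were tested against vehicle. With dicoumarol 0 were called (0% of all genes), and with magnolol 1 higher (1.23% of all genes, either direction). The combination had 2 higher (3.86% of all genes higher, 1.36% lower). Rosiglitazone had 4 higher and 4 lower, where 20.3% of all genes were higher and 19.9% lower. The largest were Steap4, a metalloreductase (log2 fold change 2.24 with the combination and 2.90 with rosiglitazone), and Itih4 (2.08 with rosiglitazone). In DFAT, 8 were tested, with 0 called for dicoumarol, 1 lower for magnolol, 1 higher and 4 lower for the combination, and 2 higher and 1 lower for rosiglitazone. Of all genes there, 0.911% were higher and 1.03% lower with dicoumarol, and 2.96% and 1.27% with magnolol. The shares were 6.11% higher and 4.06% lower with the combination, and 5.8% and 5.02% with rosiglitazone. The largest were ITIH4 (1.13 with rosiglitazone), SOCS3, a feedback inhibitor of cytokine signalling (−0.78 with the combination), and LCN2, the siderophore-binding lipocalin (0.77 with the combination). Lcn2 fell by 1.33 in 3T3-L1 with rosiglitazone and LCN2 rose by 0.60 in DFAT, a contrast noticed after the values were seen and not tested across the separately normalized tables.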
